A study of Mus musculus with 48 samples.

Results

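Mutant β-catenin was added to MYC in the hepatocytes of adult mice, and this comparison asked which mRNAs and which ribosome footprints differed 10 days later from those of livers with MYC alone. It used 12 of the 48 libraries of the series, from 6 of its 24 mice: the 3 mice of genotype *Ctnnb1*ex3/+; *R26*-LSL-MYC (BM) and the 3 of genotype *R26*-LSL-MYC (M) taken at day 10. Libraries were chosen by genotype and time, not by any measured value, although the comparison was chosen with earlier results of these data known. Each mouse gave 1 library of ribosome-protected fragments (RPFs, the stretches of mRNA covered by a translating ribosome) and 1 library of cytoplasmic RNA from the same frozen liver.

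Both groups were male by the labels, 2 to 4 months old and of at least 20 g, on a mixed C57BL/6 background, and both received AAV8.TBG.Cre into the tail vein. The study's reporting statement gives equal numbers of males and females for most of its experiments, but the Y-linked gene *Kdm5d* was at 12.6 CPM or more in all 24 RPF libraries of the series and at 15.2 or more in all 24 RNA libraries. The TBG promoter limits Cre to hepatocytes, so Kupffer, endothelial, stellate and other liver cells kept their unrecombined alleles. Cre removes exon 3 from 1 *Ctnnb1* allele in BM, which leaves a β-catenin protein that escapes degradation, and it switches on a *MYC* transgene at the *Rosa26* locus in BM and in M. The M mice are therefore controls that carry the transgene and the virus, and by genotype the groups differ in the *Ctnnb1* allele. Whether MYC dose, recombination or hour of sampling was equal between the groups was not tested. Samples were whole liver, so fewer cells of a type and less RNA per cell cannot be told apart.

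β-catenin carries the Wnt signal to the nucleus, where it joins TCF and LEF factors on DNA. In normal liver this signal is strongest around the central vein and sets zone 3, where hepatocytes make glutamine, take up ammonia and express many cytochromes P450. Hepatocytes around the portal vein (zone 1) carry out urea synthesis, gluconeogenesis and amino acid breakdown. MYC is a transcription factor known for raising ribosome production, nucleotide synthesis and cell-cycle entry.

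The letters CTTTGAT, and ATCAAAG on the other strand, are a core that TCF and LEF factors are known to bind. RefSeq promoters (build GRCm38.p6, 250 bases before to 50 after each gene start) were searched on both strands for them. The 27 bases around each match are printed for the 6 genes of the Wnt target, zone 3 and zone 1 lists that held one, because the results below turn on these lists. Matching letters are in capitals, and each sequence is read along the strand of its gene. That strand is minus for *Lect2* and *Tnfrsf19* and plus for the other genes. *Sp5* lies at chr2:70474809-70474835, *Lect2* at chr13:56548554-56548580, *Tnfrsf19* at chr14:61038173-61038199, *Slc1a2* at chr2:102706221-102706247, *Cyp2c29* at chr19:39286956-39286982 and *Hal* at chr10:93488559-93488585.
Sp5: gcaaggccccCTTTGATcaggaaaatc
Lect2: gcttctccagATCAAAGgctttggccg
Tnfrsf19: tgaatgggggATCAAAGtgacaaacta
Slc1a2: gaagagggacATCAAAGgccccaaatg
Cyp2c29: ttttatctctATCAAAGagacaaagtc
Hal: gaactgctttCTTTGATggagcaatgg
Of the genes with a promoter in the table, 3 of 10 Wnt targets, 2 of 18 zone 3 genes (11.1%) and 1 of 13 zone 1 genes (7.69%) held the letters, against 1160 of all 27025 genes (4.29%). A match is a description of these letters and not a bound site. The 6 genes did not move together: *Sp5*, *Lect2* and *Slc1a2* rose, *Cyp2c29* fell, *Hal* was lower in each BM mouse than in every M mouse without passing the test, and the groups overlapped for *Tnfrsf19*.

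The RPF libraries held 11162699 to 14380713 counts and the RNA libraries 3254141 to 5052777. Hepatocyte markers summed to 77600, 79130 and 79010 footprint CPM (counts scaled to library size) in M and to 59950, 61850 and 67420 in BM, and 5 of 8 were called lower and 1 higher in footprints and in RNA. Without BM mouse 1 the footprint counts were 5 and 2, and without M mouse 1, M mouse 2 or BM mouse 2 the lower footprints numbered 2, and without those mice or BM mouse 3 the lower RNAs numbered 2 or 3. The part of this difference in the results below was not tested. BM mouse 1 stood apart from the other BM mice. Its log2 footprint levels correlated with those of BM mice 2 and 3 at 0.948 and 0.937, against 0.991 between those 2, and the M mice correlated at 0.976 to 0.994 with each other. For the genes called without it, BM mouse 1 lay on the same side of the M mean for 72.3% of those higher and 81.3% of those lower, at a median of 32.0% and 43.4% of the shift of the other BM mice. Most footprint counts of the lists below are therefore also given without BM mouse 1. Groups of 3 values are listed in the order of mice 1, 2 and 3, and levels are CPM after TMM scaling.

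At day 10 the footprints of 1840 genes were higher and of 1931 lower in BM than in M, of 11524 tested (16.0% and 16.8%, edgeR quasi-likelihood test, adjusted p under 0.1, the threshold used throughout). RNA of 1821 genes was higher and of 1865 lower, of 11222 tested (16.2% and 16.6%). Groups did not overlap for 1709 of the 1840 higher footprints and 1894 of the 1931 lower ones. The test itself favours genes whose groups do not overlap, so these counts are no separate support for the calls. Without BM mouse 1 the counts rose to 3544 and 3323 of 11604 for footprints (30.5% and 28.6%), and to 2843 and 2917 of 11440 for RNA (24.9% and 25.5%). Without M mouse 1, M mouse 2, BM mouse 2 or BM mouse 3 the higher and lower footprint counts were 636 and 836, 676 and 848, 873 and 846, and 1005 and 1143, and without M mouse 3 they were 1466 and 1636. The RNA counts were 951 and 1159, 972 and 1101, 982 and 1069, and 1111 and 1201 without the same 4 mice, and 1277 and 1699 without M mouse 3.

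**Figure D1:**
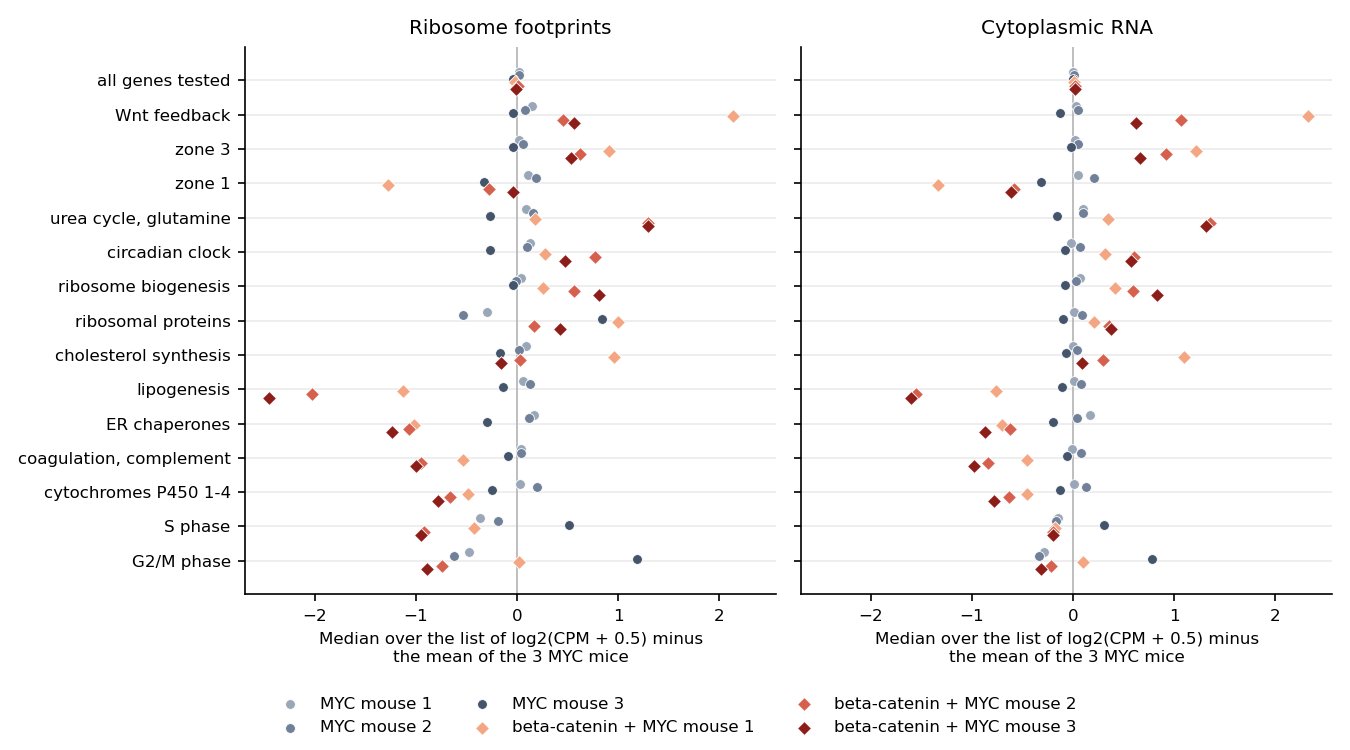
Median log2 level of each gene list in each mouse, relative to the mean of the M mice, for footprints (left) and RNA (right); circles are the M mice and diamonds the BM mice, with BM mouse 1 the palest diamond. Wnt targets were highest in BM mouse 1, at a median of 2.13 for footprints against 0.46 and 0.57 in the other BM mice, while nitrogen handling genes were near the M level in that mouse (0.18) and at 1.29 in both others.

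Wnt feedback genes, which the pathway switches on to limit itself, form a list with other direct β-catenin targets. Of 11 tested for footprints 5 rose and none fell, with a median log2 change of 1.39 against 0.01 over all genes, and of 10 tested for RNA 6 rose, with a median of 1.54. Without BM mouse 1 the counts were 5 up and 1 down for footprints and 6 and 2 for RNA, and the medians fell to 0.65 and 0.96. With any other mouse left out, 5 or 6 footprints and 6 to 9 RNAs rose and none fell. *Axin2*, a scaffold of the β-catenin destruction complex (GRCm39 chr11:108811169-108841609), had 2.79, 3.05 and 1.73 CPM of footprints in M and 28.7, 11.6 and 6.78 in BM. The groups did not overlap, and the log2 change was 2.64 ± 0.55 (SE, n = 3 per group, adjusted p = 0.0178).

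*Lgr5*, the R-spondin receptor (chr10:115286216-115423685), had 13.5, 19.8 and 16.1 CPM of footprints in M and 124, 51.0 and 32.8 in BM, a log2 change of 2.07 ± 0.47 (n = 3, adjusted p = 0.0234). *Znrf3*, a ubiquitin ligase that removes Wnt receptors, rose by 1.80 ± 0.33 on the log2 scale, and *Sp5*, a transcription factor that restrains Wnt output, by 2.75 ± 0.50. *Lect2*, a secreted hepatokine, rose by 1.99 ± 0.22, from 55.8 to 66.3 CPM in M to 203 to 313 in BM. BM mouse 1 was the highest of all 6 mice for these 5 genes, and the other BM mice also lay above every M mouse.

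Footprints of other Wnt targets were high mainly in BM mouse 1. Footprints of *Notum*, a secreted Wnt deacylase, were 19.7, 18.7 and 13.8 CPM in M and 77.1, 23.8 and 13.9 in BM (adjusted p = 0.183), although its RNA rose by 1.34 ± 0.42 (adjusted p = 0.0487). *Tnfrsf19* had 3.85, 4.12 and 4.29 CPM in M and 14.9, 4.98 and 2.53 in BM, and *Nkd1*, an inhibitor of Dishevelled, had 1.80, 1.48 and 1.07 against 6.53, 0.945 and 0.362. *Rnf43*, the partner ligase of *Znrf3*, and *Tbx3*, a transcription factor, showed the same split, with 11.3 and 64.4 CPM in BM mouse 1 but 4.04 and 3.34, and 17.4 and 18.1, in the other BM mice. Without BM mouse 1, RNA of *Rnf43* was called lower at −0.98 (adjusted p = 0.0153) and footprints of *Nkd1* at −1.09 (adjusted p = 0.0898). *Tcf7*, a TCF factor, had 0.902, 0.329 and 0.743 CPM of footprints in M and 3.05, 0.859 and 1.18 in BM, and its RNA rose by 2.14 ± 0.43.

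Of the 25 pericentral (zone 3) genes 13 rose and 4 fell in footprints (median 0.63), and 14 rose and 2 fell in RNA (median 0.97). Leaving out BM mouse 1 gave 13 and 7 for footprints and 14 and 3 for RNA, and leaving out any other mouse gave 10 to 12 up and 3 or 4 down for footprints. Those that rose include genes that handle glutamate, ornithine and ammonia. *Slc1a2*, a glutamate transporter (chr2:102488574-102621129), had 118, 124 and 88.7 CPM of footprints in M and 1608, 1936 and 1806 in BM, a log2 change of 4.01 ± 0.21 (n = 3, adjusted p = 0.000192). The 3 BM mice agreed closely here, unlike for the Wnt feedback genes.

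Footprints of *Glul*, glutamine synthetase (chr1:153775690-153785469), were 799, 800 and 765 CPM in M and 3730, 2752 and 1783 in BM, a log2 change of 1.81 ± 0.28 (n = 3, adjusted p = 0.00638). *Oat*, ornithine aminotransferase, went from 562, 603 and 662 CPM to 5885, 8212 and 9621 (3.70 ± 0.25). *Lhpp*, a histidine phosphatase, rose by 4.23 ± 0.27, *Slc22a3*, an organic cation transporter, by 4.81 ± 0.21, and *Rhbg*, an ammonia channel, by 3.52 ± 0.33. Groups did not overlap for any of these 5 genes in footprints or in RNA.

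Zone 3 cytochromes P450 did not move as one. *Cyp2e1*, which oxidises ethanol, rose by 0.63 ± 0.21 in footprints and by 1.46 ± 0.20 in RNA, and *Cyp7a1*, the rate-limiting enzyme of bile acid synthesis, rose by 1.56 ± 0.37 and 1.66 ± 0.36. *Por*, the reductase that supplies electrons to these enzymes, rose by 2.44 ± 0.38 and 3.26 ± 0.36. *Cyp2c29* fell by 3.06 on the log2 scale (SE 0.44), from 2015, 2355 and 1566 CPM to 395, 198 and 120. *Cyp2c50* fell by 1.36 (SE 0.29) and *Cyp27a1*, a sterol hydroxylase, by 0.44 (SE 0.16). Reads of the *Cyp2c* genes can be shared among near-identical copies, so their levels are uncertain.

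*Cyp1a2*, which metabolises caffeine, showed how BM mouse 1 split the group: footprints were 832, 810 and 857 CPM in M, 1009 in BM mouse 1 and 288 and 197 in the other BM mice. The log2 difference was −0.74 ± 0.55 (adjusted p = 0.358) with all mice and −1.74 (adjusted p = 0.00041) without BM mouse 1. The log2 difference in RNA of *Cyp1a2* was 0.46 ± 0.21, which did not pass the test. *Slc13a3*, a carboxylate transporter, was split in the same way, with 70.7 CPM of footprints in BM mouse 1, 7.13 and 4.25 in the others and 9.25 to 12.1 in M.

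**Figure D2:**
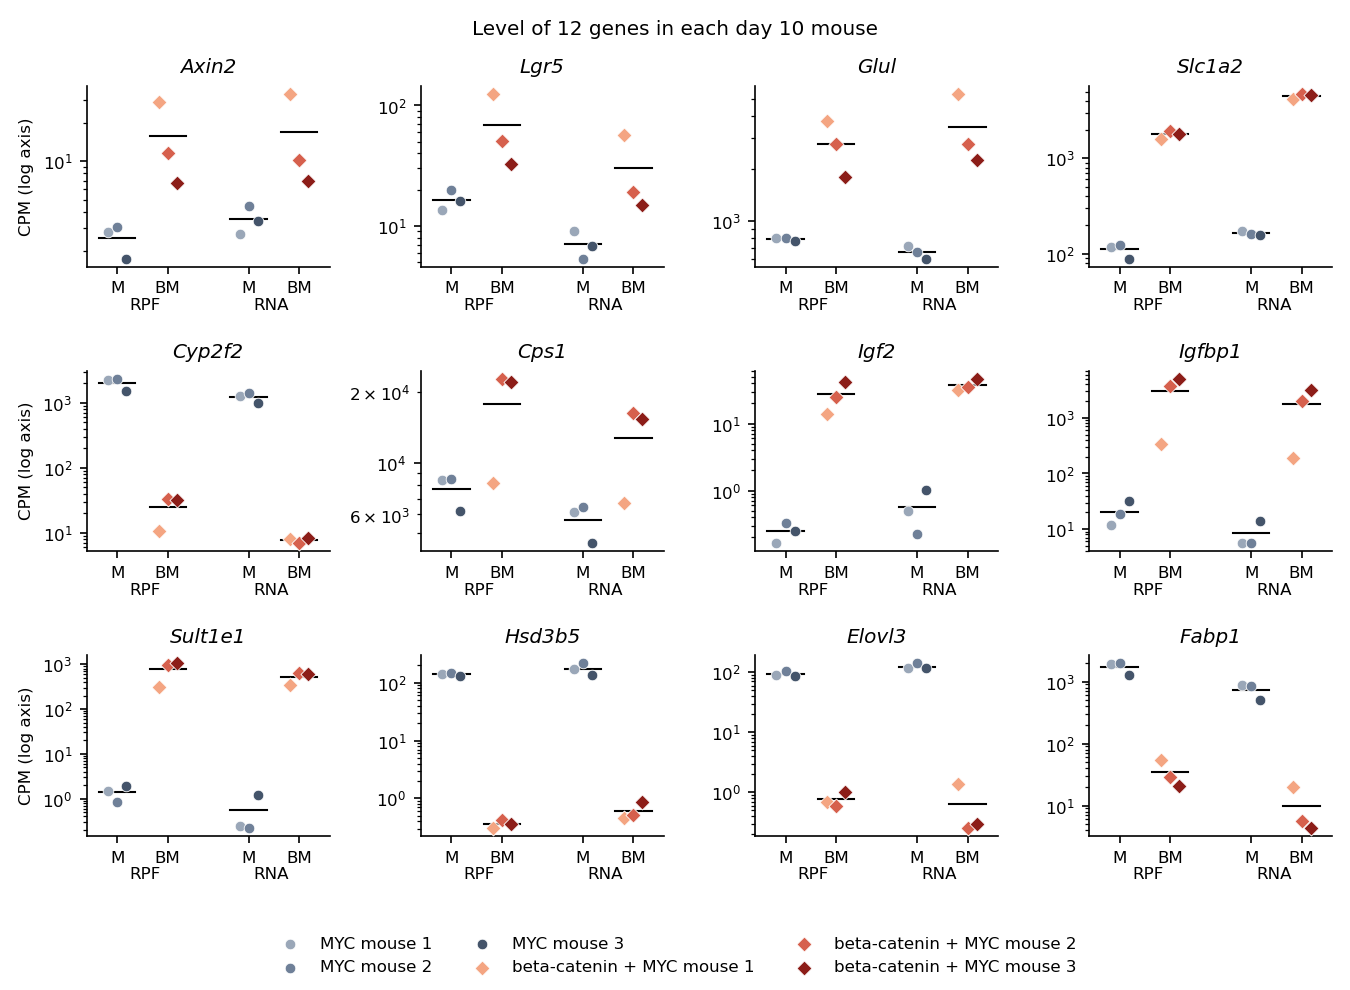
Footprint and RNA levels (CPM, log axis) of 12 genes in each of the 3 M and 3 BM mice; circles are M mice, diamonds BM mice and bars group means. *Slc1a2*, *Sult1e1* and *Igf2* were high in all BM mice, *Cyp2f2*, *Hsd3b5*, *Elovl3* and *Fabp1* low in all of them, *Axin2* and *Lgr5* were highest in BM mouse 1, and footprints of *Cps1* in that mouse lay among those of the M mice.

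Periportal (zone 1) genes divided into a set that fell and a set that rose. Of 21 tested for footprints 7 fell and 4 rose (median −0.26), and of 20 tested for RNA 10 fell and 4 rose (median −0.77). *Cyp2f2*, a zone 1 P450 (chr7:26819322-26833090), dropped from 2265, 2335 and 1507 CPM of footprints in M to 10.6, 33.2 and 31.5 in BM, a log2 change of −6.35 ± 0.52 (n = 3, adjusted p = 0.000752), and RNA changed by −7.31 ± 0.23. *Pigr*, the polymeric immunoglobulin receptor, changed by −2.94 ± 0.31, *Hsd17b13*, a lipid droplet enzyme, by −1.82 ± 0.20 and *Gldc*, of the glycine cleavage system, by −1.21 ± 0.24. *Gls2*, the hepatocyte glutaminase, fell from 512, 532 and 376 CPM to 20.3, 129 and 149. BM mouse 1 was the lowest of the 6 mice for *Cyp2f2*, *Gldc* and *Gls2* in footprints.

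The zone 1 genes that rose were *Pck1*, *Asl*, *Ass1* and *Cps1*, and here BM mouse 1 lay near the M mice. *Cps1*, the first enzyme of the urea cycle, had 8402, 8518 and 6197 CPM of footprints in M, 8211 in BM mouse 1 and 22804 and 22137 in BM mice 2 and 3 (1.20 ± 0.39, adjusted p = 0.0648). *Pck1*, of gluconeogenesis, had 721, 877 and 475 CPM in M and 696, 3926 and 4291 in BM (2.10 ± 0.62, adjusted p = 0.0499). *Asl*, argininosuccinate lyase, had 840, 898 and 616 CPM in M and 711, 3762 and 4381 in BM (1.91 ± 0.59, adjusted p = 0.0568). Groups overlapped for these 3 genes in footprints, and *Ass1*, argininosuccinate synthase, had 5036 CPM in BM mouse 1 against 4446 to 4554 in M.

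*G6pc1*, *Etnppl* and *Hamp* showed the same order without passing the test in footprints: *G6pc1*, glucose-6-phosphatase, had 243, 220 and 160 CPM in M, 83.9 in BM mouse 1, and 639 and 1151 in the others (adjusted p = 0.164). *Hal*, histidine ammonia-lyase, had 735, 886 and 456 CPM in M and 10.4, 233 and 351 in BM (adjusted p = 0.205). The zone 1 counts without BM mouse 1 were 7 up and 8 down for footprints and 8 and 12 for RNA. Without any one of the other 5 mice none of the zone 1 footprints was called higher and 5 to 7 were called lower. For RNA those 5 fits called 2 to 4 higher and 9 to 11 lower.

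Genes of the urea cycle and of glutamine and ammonia handling belong to both ends of the lobule. Of 22 tested 13 rose, 2 fell and 7 did not pass the test in footprints (median 1.02), with the same counts for RNA (median 1.04), and without BM mouse 1 the counts were 15 and 3 for footprints and 15 and 2 for RNA. Higher footprints numbered, without M mouse 1, 2 or 3, 6, 7 and 7, and without BM mouse 2 or 3 they numbered 7 and 7. *Got1*, the cytosolic aspartate aminotransferase, had 250, 291 and 348 CPM of footprints in M and 684, 4950 and 5633 in BM (3.66 ± 0.71, adjusted p = 0.0142). *Oat*, *Slc1a2* and *Rhbg*, given above with zone 3, were the other members that rose most. *Otc*, ornithine transcarbamylase, was 1 of the 2 that fell (−1.46 ± 0.24 in footprints, chosen after its value was seen), and *Gls2* was the other.

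Amino acid breakdown enzymes went both ways, with 11 up and 11 down of 35 in footprints (median 0.12) and 11 and 12 of 34 in RNA (median −0.11). *Mat1a*, which makes the methyl donor S-adenosylmethionine, rose by 2.31 ± 0.36, from 1682, 1815 and 1304 CPM to 4202, 9402 and 10224. *Tat*, tyrosine aminotransferase, had 1167, 1161 and 682 CPM in M and 1165, 7266 and 8886 in BM. *Csad*, of taurine synthesis, fell by 3.12 on the log2 scale (SE 0.26) and *Amdhd1*, of histidine breakdown, by 3.30 (SE 0.54). Omitting BM mouse 1 gave 19 higher and 13 lower footprints, and without M mouse 1, M mouse 2, M mouse 3, BM mouse 2 or BM mouse 3 they were 5 and 7, 5 and 7, 6 and 11, 5 and 7, and 5 and 8.

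The largest rises over all genes were outside the zonation lists. *Sult1e1*, the oestrogen sulfotransferase (chr5:87723828-87739461), had 1.48, 0.823 and 1.90 CPM of footprints in M and 303, 959 and 1044 in BM, a log2 change of 9.09 ± 0.66 (n = 3, adjusted p = 0.000492), and its RNA rose by 9.75 ± 0.46. *Igfbp1*, a secreted IGF-binding protein of fasting liver (chr11:7147651-7152546), had 11.6, 18.6 and 31.7 CPM in M and 341, 3790 and 5037 in BM (7.21 ± 1.06, adjusted p = 0.0059). *Igf2*, a fetal growth factor that adult mouse liver normally keeps silent (chr7:142204503-142220694), had 0.164, 0.329 and 0.248 CPM in M and 14.0, 25.2 and 42.4 in BM (6.72 ± 0.57, adjusted p = 0.000837). BM mouse 1 was the lowest BM mouse for all 3 genes but still stood above every M mouse.

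Other genes with large rises included *Plin4*, a lipid droplet coat protein (6.04 ± 0.35 in footprints), *Tuba8*, a tubulin (5.41 ± 0.50), and the clock gene *Per1* (5.36 ± 0.58). The metallothioneins *Mt1* and *Mt2*, which bind zinc and copper, rose by 4.66 ± 0.39 and 4.96 ± 0.54. *Mt1* went from 22.5, 29.7 and 43.8 CPM to 496, 920 and 1013. *Sult2a1*, a bile acid sulfotransferase, was at 0, 0 and 0.165 CPM of footprints in M and at 0.933, 3.61 and 4.43 in BM. *Igf2bp3*, a fetal RNA-binding protein, had no footprint in M and was at least 4.5-fold higher in BM, computed against a floor of 3 counts per library. *Fndc10* had none in M either and was at least 11.6-fold higher, with 7.03 CPM in BM mouse 1 but 1.29 and 0.271 in the others.

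Of the IGF, mTOR and G1 cyclin genes 9 of 35 rose and 1 fell in footprints (median 0.12), and 10 rose and 8 fell in RNA (median 0.18). *Irs2*, an insulin receptor adaptor, went from 5.74, 9.38 and 11.9 CPM to 23.9, 175 and 337 (4.31 ± 0.88), and *Ddit4*, an inhibitor of mTOR complex 1, from 28.9, 18 and 27.6 to 64.5, 236 and 268 (2.93 ± 0.52). *Mtor* itself had 125, 128 and 131 CPM in M and 150, 111 and 112 in BM (−0.04 ± 0.17, adjusted p = 0.882). *Ccnd1*, cyclin D1, was at 13.7, 12.9 and 14.5 CPM in M and at 61.5, 17.9 and 18 in BM (adjusted p = 0.102). *Igfbp2*, which marks mid-lobular hepatocytes, had 340, 428 and 347 CPM of footprints in M and 68.6, 216 and 240 in BM (adjusted p = 0.103), and its RNA fell by 1.72 on the log2 scale (SE 0.26). This list gave, without BM mouse 1, 16 up and 8 down in footprints and 14 and 9 in RNA. Without any other mouse it gave 5 to 7 up and 0 or 1 down in footprints, and in RNA 5 to 9 up, with 8 down without M mouse 3 and 2 or 3 without the others.

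The deepest falls were of genes with several functions. *Hsd3b5*, a male-biased steroid dehydrogenase (chr3:98525941-98553068), had 143, 148 and 131 CPM of footprints in M and 0.311, 0.430 and 0.362 in BM, a log2 change of −8.56 ± 0.21 (n = 3, adjusted p = 5.34e-06). *Elovl3*, a fatty acid elongase (chr19:46119917-46124133), had 89.3, 106 and 87.5 CPM in M and 0.684, 0.601 and 0.994 in BM (−6.95 ± 0.24). *Serpina12*, a secreted protease inhibitor, changed by −7.78 ± 0.22 and *Dio1*, the deiodinase that makes active thyroid hormone, by −6.84 ± 0.59. All 6 mice fitted this split, and BM mouse 1 was as low as the other BM mice.

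*Fabp1*, the liver fatty acid-binding protein (chr6:71176809-71182016), went from 1927, 1960 and 1274 CPM of footprints to 53.6, 29.4 and 20.7 (−5.64 ± 0.43) and *Aspg*, an asparaginase, from 135, 128 and 95.4 to 0.933, 2.06 and 1.45. Genes of major urinary proteins, pheromone carriers secreted by male liver, were among those that fell. *Mup21* changed by −6.32 ± 0.35 in footprints and −6.99 ± 0.32 in RNA, and *Mup7*, *Mup15*, *Mup16* and *Mup17* by −4.45 to −8.99 in footprints. These genes are near-identical copies, so values for single members are uncertain. *Serpinb1c* and *Cyp2b13* had no footprint in BM and were at least 9.18-fold and 5.07-fold lower there against a floor of 3 counts per library.

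Lipogenic genes fell as a list. Of 19 tested 13 fell and none rose in footprints (median −1.49), and 14 fell and none rose in RNA (median −0.99). Falls numbered, without BM mouse 1, 18 and 17, and without any other mouse 9 to 11 and 11 to 13. *Scd1*, stearoyl-CoA desaturase, had 1942, 2124 and 1444 CPM of footprints in M and 281, 357 and 235 in BM (−2.66 ± 0.24, n = 3, adjusted p = 0.00105). *Me1*, malic enzyme, changed by −2.98 ± 0.20 and *Pklr*, liver pyruvate kinase, by −2.38 ± 0.24. *Mlxipl*, the carbohydrate-responsive factor that drives several of these genes, changed by −1.78 ± 0.34.

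Genes for secretion fell as well. Of 19 chaperones and sensors of the endoplasmic reticulum 15 fell and none rose in footprints (median −1.07), and 12 fell in RNA. Omitting BM mouse 1 left 15 and 12 falls, with 2 and 1 rises, and the falls were 10 to 15 and 10 to 13 without any other mouse. *Creld2* went from 64.3, 41.2 and 21.3 CPM to 13.4, 6.19 and 4.70, and *Hyou1* from 588, 510 and 280 to 153, 112 and 103. *Ern1*, the sensor that splices *Xbp1*, changed by −1.73 ± 0.32 in footprints and −1.42 ± 0.23 in RNA.

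Coagulation and complement genes followed, with 21 of 29 lower and 2 higher in footprints and in RNA (medians −0.86 and −0.82). Falls were 25 and 24 when BM mouse 1 was left out, and without M mouse 1, M mouse 2, BM mouse 2 or BM mouse 3 they were 12, 12, 12 and 13 in footprints. *C9*, of the membrane attack complex, had 915, 843 and 983 CPM of footprints in M and 137, 102 and 92.9 in BM (−3.04 ± 0.21, n = 3, adjusted p = 0.000404). *Mbl2*, a lectin that starts complement, changed by −1.94 ± 0.17, whereas *Pros1*, protein S, rose by 1.85 ± 0.28. Of 16 apolipoproteins and plasma carriers 8 fell and 1 rose, among them *Ttr*, transthyretin (−1.06 ± 0.16), and *Apom* (−1.05 ± 0.14). Their falls numbered 9 without BM mouse 1 and 4, 4, 4 and 6 without M mouse 1, M mouse 2, BM mouse 2 and BM mouse 3.

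Cytochromes P450 of families 1 to 4 were mostly lower, with 27 of 50 down and 5 up in footprints (median −0.70) and 26 of 52 down and 9 up in RNA. *Cyp2j5* fell from 603, 633 and 471 CPM to 81.0, 57.4 and 46.8. The lower footprints numbered 32 without BM mouse 1, and 16, 15, 16 and 19 without M mouse 1, M mouse 2, BM mouse 2 and BM mouse 3. The higher ones numbered 1, 3, 2, 7, 1 and 2 without M mice 1, 2 and 3 and BM mice 1, 2 and 3. Conjugation enzymes gave 20 down and 9 up of 45, and 21 and 12 without BM mouse 1. Of the bile acid genes 13 of 29 fell and 7 rose: *Slco1a1*, an organic anion importer of male liver, changed by −3.86 ± 0.38, *Cyp7b1*, of the alternative bile acid pathway, by −2.62 ± 0.22, and *Slco1a4*, a related importer, rose by 3.41 ± 0.53. Leaving BM mouse 1 out, the counts were 16 and 9, and the falls numbered 8 without M mouse 1, M mouse 2, BM mouse 2 or BM mouse 3. In the fat oxidation and PPARα list 12 of 27 fell and 2 rose (13 and 3 without BM mouse 1), and the falls numbered 5, 5, 7 and 7 without M mouse 1, M mouse 2, BM mouse 2 and BM mouse 3. *Acaa1b*, a peroxisomal thiolase, changed by −3.19 ± 0.39, and *Pdk4*, which blocks glucose oxidation, rose by 2.32 ± 0.33.

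Reads assigned to mouse *Myc* were higher in BM: footprints were 48.9, 53.1 and 61.6 CPM in M and 62.1, 134 and 180 in BM (1.20 ± 0.35, adjusted p = 0.0503), and RNA rose by 0.83 ± 0.31 (adjusted p = 0.0863). Whether transgene reads aligned to the mouse gene was not tested. Of the MYC, MAX, MXD and MLX network 4 of 11 rose and 2 fell in footprints (median 0.61) and in RNA (median −0.09). With BM mouse 1 left out, the footprint counts were 7 and 2, and the rises numbered 2 in footprints and 2 or 3 in RNA without M mouse 1, M mouse 2, BM mouse 2 or BM mouse 3. *Max* (1.42 ± 0.26) and *Mnt* (2.23 ± 0.43), which partner MYC or compete with it on DNA, were among those that rose in footprints. *Ctnnb1* had 406, 408 and 364 CPM of footprints in M and 324, 299 and 311 in BM (adjusted p = 0.133), and its RNA changed by −0.45 ± 0.12 (adjusted p = 0.0286). The deleted exon cannot be seen in counts per gene, so this level does not check the genotype, whereas *Axin2* and *Glul* were higher in each BM mouse.

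Ribosome biogenesis genes are classical targets of MYC. Of 36 tested 19 rose and 1 fell in footprints (median 0.57) and 22 rose and 1 fell in RNA (median 0.62). *Ncl*, nucleolin, had 539, 483 and 666 CPM of footprints in M and 827, 1440 and 1761 in BM (1.26 ± 0.29, n = 3, adjusted p = 0.0256), and *Gnl3*, nucleostemin, had 71.1, 76.0 and 70.9 against 79.2, 210 and 276. Rises numbered 29 and 27 when BM mouse 1 was left out, and without M mouse 1, M mouse 2, M mouse 3, BM mouse 2 and BM mouse 3 they were 5, 3, 13, 8 and 9 in footprints and 18, 14, 16, 15 and 15 in RNA. Of the cytosolic ribosomal protein genes 36 of 81 rose in RNA (median 0.32) and 1 of 78 in footprints (median 0.46), and none of 78 was called for a difference between the assays (the TE test described below, median 0.11). In footprints the list median, relative to the M mean, was −0.29, −0.54 and 0.84 in M and 1.00, 0.17 and 0.42 in BM, so the groups overlapped. Without M mouse 3 the footprint count was 54, with a median of 0.97, and the RNA count 8. The footprint count was 2 without BM mouse 1 and 0 without any of the other 4. Without M mouse 1, M mouse 2, BM mouse 1, BM mouse 2 and BM mouse 3 the RNA counts were 13, 13, 55, 6 and 9. Many of these genes have processed pseudogenes that can share their reads.

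Cell-cycle genes were called lower about as often as all genes in footprints. Of 93 S and G2/M genes tested 17 were lower and 3 higher in footprints (median −0.70), beside 16.8% and 16.0% of all genes, and of 84 tested 3 were lower and 1 higher in RNA (median −0.25). The footprint falls were 16 of 41 S phase genes and 1 of 52 G2/M genes. Those of S phase included *E2f8*, a repressor of the E2F programme (8.11, 6.58 and 8.09 CPM in M, 1.12, 0.687 and 0.723 in BM), and *Mcm5*, of the replicative helicase (12.3, 16.9 and 41.1 against 10.3, 3.44 and 4.70). *Mki67*, a marker of cycling cells, had 13.1, 11.2 and 43.2 CPM of footprints in M and 18.6, 16.4 and 11.1 in BM (adjusted p = 0.462), and *Top2a*, topoisomerase II, 15.7, 17.1 and 81.0 against 25.2, 7.30 and 7.23 (adjusted p = 0.187).

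M mouse 3 was the highest of the 6 mice for *Mki67*, *Top2a* and *Mcm5*, and its list median lay 0.81 above the M mean in footprints. Without M mouse 3, 6 footprints were lower and 6 higher and the median was −0.04, and 7 RNAs were higher and none lower. Without M mouse 1, M mouse 2, BM mouse 2 or BM mouse 3 the lower footprints numbered 10, 5, 2 and 3. When BM mouse 1 was left out they numbered 36, with 10 higher, and the lower RNAs 21, with 7 higher.

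Of the clock genes 7 of 21 rose and 1 fell in footprints (median 0.63), and 6 of 17 rose in RNA. *Per1* had 1.15, 1.23 and 2.48 CPM of footprints in M and 26.2, 78.9 and 95.3 in BM, *Usp2* had 2.13, 2.06 and 3.22 against 23.5, 41.3 and 31.2, and *Ciart*, a clock repressor, 0.328, 0.412 and 0 against 6.72, 26.3 and 16.6. *Npas2*, an activator of the clock, was called lower at −2.29 ± 0.81. The hour at which each liver was taken is not given in the sources used here. Higher footprints numbered 13 without BM mouse 1 and 3 without M mouse 2.

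Cholesterol synthesis and uptake genes gave 8 of 24 up and 1 down in footprints (median 0.40) and 12 up and 1 down in RNA. *Sqle*, squalene epoxidase, had 86.9, 68.8 and 68.2 CPM of footprints in M and 239, 186 and 164 in BM, and rose by 1.40 ± 0.20 (adjusted p = 0.00519). The list without BM mouse 1 had 8 up and 7 down and a median of 0.04, near the 30.5% and 28.6% of all genes in that fit. Without M mouse 1 or M mouse 2 the rises numbered 5 and 4 in footprints, and without M mouse 1, M mouse 2 or M mouse 3 they numbered 4, 3 and 6 in RNA.

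Interferon-stimulated genes gave 7 of 26 up and 3 down in footprints, beside 16.0% and 16.8% of all genes. *Usp18*, which removes ISG15, rose by 3.41 ± 0.32, from 12.7, 10.4 and 18.3 CPM to 101, 146 and 193, and *Ifit2* by 2.55 ± 0.20. As many fell as rose without BM mouse 1, 8 and 8, near the 30.5% and 28.6% of all genes in that fit. Without M mouse 3 the counts were 12 up and 2 down. Rises numbered 4 and 3 without M mouse 1 or M mouse 2. The acute-phase proteins *Lcn2* and *Orm2* rose, *Lcn2* from 19.7, 15.8 and 75.8 CPM to 766, 343 and 394, while 11 of the 23 acute-phase genes fell. When BM mouse 1 was omitted, the counts were 4 up and 14 down. The falls numbered 4, 4, 7, 4 and 6 without M mouse 1, M mouse 2, M mouse 3, BM mouse 2 and BM mouse 3. The oncofetal gene *Afp*, α-fetoprotein, rose from 5.33, 4.77 and 5.70 CPM to 38.3, 28.4 and 35.4 (2.69 ± 0.19).

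Some markers of other liver cells also differed between BM and M. Kupffer cell markers summed to 739 to 1024 footprint CPM in M and 1122 to 1257 in BM, and 5 of 10 rose (6, with 1 lower, without BM mouse 1), among them *Vsig4* (0.85 ± 0.19) and *C1qb* (0.81 ± 0.20). Markers of recruited myeloid cells, which include neutrophil genes, summed to 8.23 to 27.6 in M and 47.5 to 65.0 in BM, and 5 of 6 rose with and without BM mouse 1, such as *Gpnmb*, from 1.97, 1.15 and 12.3 CPM to 23.6, 40.6 and 44.6. Without any 1 of M mouse 1, M mouse 2, BM mouse 2 or BM mouse 3, the Kupffer rises numbered 1 or 2 and the myeloid rises 1. RNA of these lists gave 2 of 10 and 1 of 2 called higher. Kupffer RNA sums overlapped, at 324, 306 and 511 CPM in M and 516, 445 and 492 in BM. Those of recruited myeloid markers did not, at 8.03 to 18.6 in M and 19.7 to 25.0 in BM. Erythroid markers, of red blood cells and their precursors, summed to 624, 870 and 497 footprint CPM in M and to 437, 1521 and 2074 in BM, with BM mouse 1 below every M mouse and the other BM mice above. *Alas2*, of haem synthesis and chosen after its value was seen, fell by 2.75 on the log2 scale (SE 0.16) and the 3 globin genes tested did not pass the test (median of the list 1.12). Leaving BM mouse 1 out, 4 of these markers were called higher and 1 lower in footprints (median 1.59) and in RNA (median 1.14).

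Endothelial markers gave 3 of 10 higher in footprints, and 1 higher and 3 lower in RNA. Over all genes 16.0% were higher and 16.8% lower in footprints, and 16.2% and 16.6% in RNA. Stellate cell markers gave 3 of 10 higher and 1 lower in footprints, and 2 of 9 higher and 3 lower in RNA. With BM mouse 1 left out, 6 endothelial footprints were higher, and 4 stellate ones were higher and 1 lower. Over all genes 30.5% were then higher and 28.6% lower. Without M mouse 1 or M mouse 2 each list had 1 higher. The endothelial list also had 1 higher without BM mouse 2 or BM mouse 3, and the stellate list 2. Of lymphocyte markers 2 of 5 rose in footprints with and without BM mouse 1, *Cd3e* from 0.164, 0.247 and 0.165 CPM to 1.68, 6.19 and 4.97. *Sox9*, a bile duct marker, was the 1 of 4 cholangiocyte genes called lower. No marker of these lists was at 0 in all 6 mice. The part of these cells in the interferon, acute-phase and other results was not tested.

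Hepatocyte identity factors gave 2 up and 4 down of 16 in footprints (median 0.03), near the 16.0% and 16.8% of all genes, and 3 up and 4 down in RNA (median −0.17). When BM mouse 1 was omitted, the counts were 4 and 4 in footprints, and without any other mouse 0 or 1 rose and 2 or 3 fell. *Cebpa*, a factor of mature hepatocytes, changed by −1.38 ± 0.17 and *Foxa1* by −1.65 ± 0.31, and *Cebpb*, of the acute response, rose by 0.75 ± 0.23. *Ppargc1a*, a coactivator of gluconeogenesis, had 12.3, 12.7 and 12.0 CPM in M and 29.4, 191 and 254 in BM (3.68 ± 0.70). Of p53 and apoptosis genes 7 of 28 rose and 6 fell, beside 16.0% and 16.8% of all genes. The falls numbered 1, 1, 3, 8, 2 and 2 without M mice 1, 2 and 3 and BM mice 1, 2 and 3. The rises numbered 8 without BM mouse 1 and 4 without M mouse 2. The 8 rises and 8 falls without BM mouse 1 were near the 30.5% and 28.6% of all genes in that fit. *Trp53inp1*, a p53-induced autophagy factor, rose by 3.29 ± 0.50 and *Cdkn1a*, p21, by 2.32 ± 0.30. In the integrated stress response list 4 of 13 rose and 1 fell, with 5 and 2 without BM mouse 1 and 2 rises without M mouse 1. *Asns*, asparagine synthetase, went from 28.4, 14.7 and 18 CPM to 90.4, 231 and 309.

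Footprints and RNA mostly moved together. Over the 10581 genes tested in both, the log2 changes correlated at 0.876 across genes, which are not independent replicates, and 80.0% had the same sign. Both rose for 1079 genes and both fell for 1223, while footprints alone rose for 624 and fell for 560, and RNA alone rose for 646 and fell for 588. For 2 genes footprints fell and RNA rose, and for none the reverse.

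**Figure D3:**
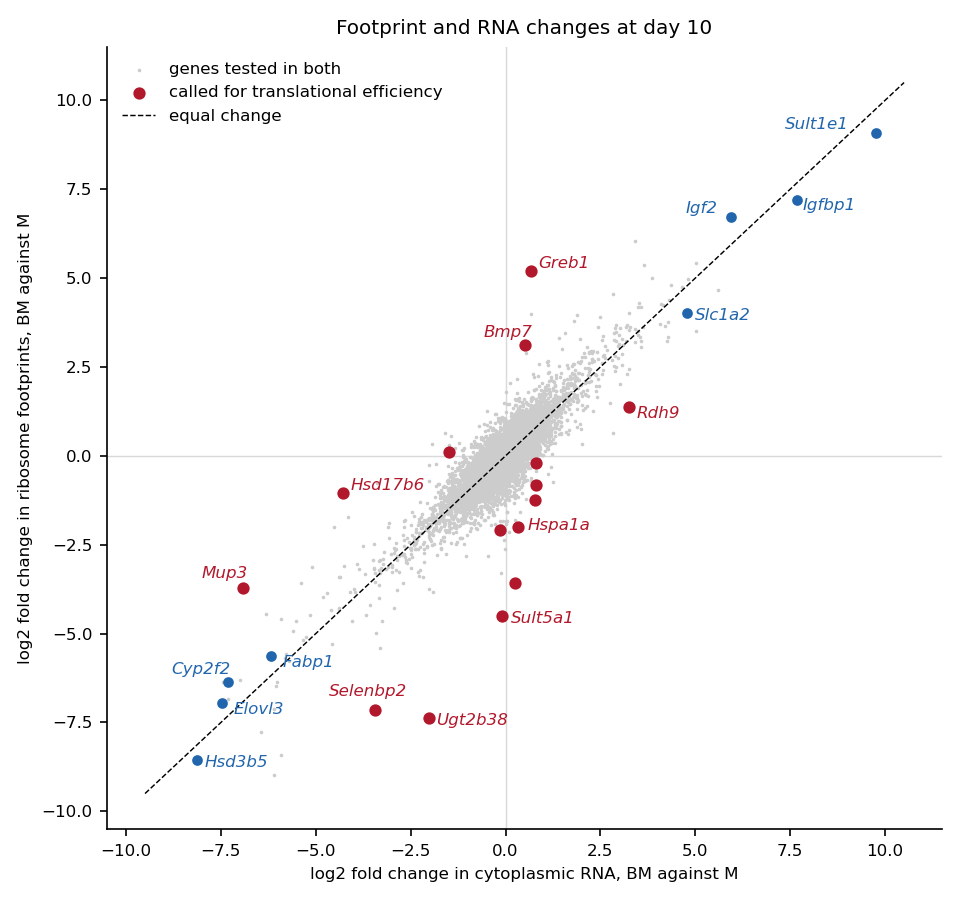
Log2 fold change of footprints against that of RNA, BM over M at day 10, for each gene tested in both; the diagonal marks equal change. The 15 genes called for translation efficiency are red, 9 of them named, and 8 genes described in the text are blue. Most genes lay along the diagonal (correlation 0.876), and *Mup3* and *Hsd17b6* lay above it with RNA falls of 6.91 and 4.28.

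Translation efficiency (TE), the footprint change beyond the RNA change of the same gene, was higher in BM for 5 genes and lower for 10 of 10581 tested (0.0473% and 0.0945%). At an unadjusted p under 0.05 there were 723. The counts rested on the fit more than any other result: with each mouse as a block, which uses that both libraries came from 1 liver, they were 39 and 65 and included all 15, and without BM mouse 1 they were 543 and 861 of 10724 (5.06% and 8.03%). Without M mouse 1, M mouse 2, BM mouse 2 or BM mouse 3 they were 1 and 5, 2 and 5, 2 and 5, and 3 and 6, and without M mouse 3 they were 3 and 7. RPFs were aligned to 1 transcript per gene, chosen over all samples, whereas RNA was summed over transcripts, so a change of transcript can also appear as a change of TE.

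Among the 5 higher, *Hsd17b6*, a zone 1 steroid dehydrogenase, had log2 TE of 0.84, 0.56 and 0.83 in M and 3.30, 4.16 and 4.37 in BM (3.18 ± 0.47, n = 3, adjusted p = 0.0215). Its RNA fell from 122, 185 and 80.1 CPM to 9.68, 5.37 and 4.38 while footprints fell from 218, 273 and 142 to 99.5, 104 and 101. *Mup3* had the same shape, with RNA changing by −6.91 ± 0.33 and footprints by −3.73 ± 0.27, but shares reads with its copies. *Greb1*, a regulator of oestrogen receptor signalling, had 0.164, 0.165 and 0.0825 CPM of footprints in M and 7.21, 6.10 and 2.71 in BM, with RNA at 27.9 to 29.7 and 33.1 to 53.5. *Bmp7*, a growth factor, and *Nid2*, of basement membranes, rose in TE by 2.56 ± 0.39 and 1.56 ± 0.29.

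Among the 10 lower, *Sult5a1*, a sulfotransferase of the zone 3 list, had 6.48, 9.55 and 5.53 CPM of footprints in M and 0.373, 0.0859 and 0.452 in BM with RNA at 4.16 to 5.58 and 3.58 to 5.40. Its log2 TE changed by −4.43 ± 0.53 (n = 3, adjusted p = 0.00418). *Thap12*, a zinc finger protein, had footprints lower by 1.25 and RNA higher by 0.77 on the log2 scale (TE −2.08 ± 0.24), and *R3hdm1* had the same opposition (TE −1.67 ± 0.24). *Hspa1a*, an inducible HSP70 with a near-identical neighbour, changed by −2.37 ± 0.31, and *Rdh9*, a retinol dehydrogenase, by −1.94 ± 0.32 as RNA rose more than footprints. *Ugt2b38*, *Selenbp2* and *Gapdhrt* changed by −5.37, −3.75 and −3.84 and have close copies, and *Uchl5* changed by −1.07. *Impa2*, an inositol phosphatase, was the last (adjusted p = 0.0877).

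**Figure D4:**
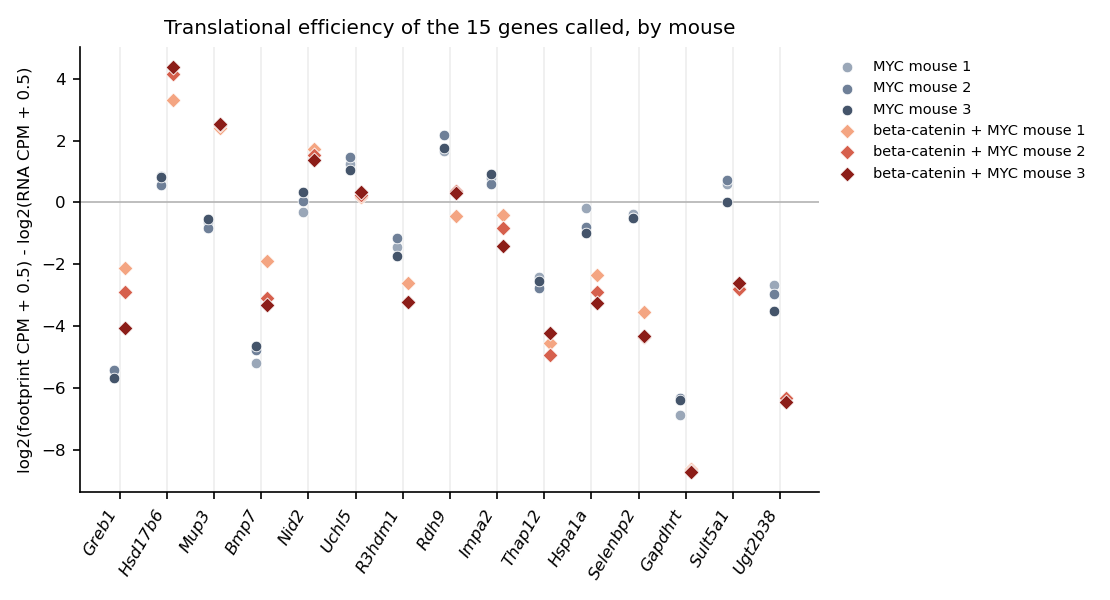
Log2 translation efficiency (footprint CPM over RNA CPM, pseudocount 0.5) of the 15 genes called, in each mouse; circles are M mice and diamonds BM mice. The M and BM mice did not overlap for *Hsd17b6*, *Sult5a1*, *Thap12* or the other 12 genes.

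Mutant β-catenin without MYC at day 10 (B, *Ctnnb1*ex3/+, against wild-type mice) gave an effect from 6 further mice. In a fit of all 12 mice, the effect on top of MYC was higher than the effect without MYC for 568 genes and lower for 913 of 11857 in footprints (4.79% and 7.70%), and for 421 and 534 of 11760 in RNA (3.58% and 4.54%). The 2 effects share no mouse, and their log2 values correlated at 0.398 across genes in footprints and 0.474 in RNA. In the fit of all 12 mice, 1776 of 11857 genes were called without MYC and 5194 with it, in footprints. Of the former 57.7% were called in the same direction with MYC, and of the latter 19.7% without it. Both shares depend on these unequal counts, and 96 genes were called in opposite directions. Leaving BM mouse 1 out, the effect with MYC was higher for 2091 and lower for 2932 genes in footprints, and for 1295 and 1734 in RNA.

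Leaving out any other mouse mostly cut these counts. The higher and lower footprints were 263 and 451, 313 and 612, and 227 and 383 without wild-type mouse 1, 2 and 3, and 273 and 548, 285 and 557, and 519 and 593 without B mouse 1, 2 and 3. They were 265 and 456, 303 and 474, and 522 and 656 without M mouse 1, 2 and 3, and 205 and 316, and 209 and 410, without BM mouse 2 and 3. For RNA they ranged from 149 and 197 without BM mouse 2 to 393 and 483 without B mouse 3.

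None of the Wnt targets, 11 of them tested in footprints, was called for a difference between the 2 settings in footprints or in RNA. Their median was 1.71 for β-catenin alone, and *Axin2* differed by −0.74 ± 0.65. With BM mouse 1 left out, 5 of the 11 were lower with MYC. Cell-cycle genes had the most negative median difference of the lists in footprints. β-catenin alone raised 52 of 96 (median 1.51), where 8.23% of all genes tested were called higher and 6.75% lower for that effect, and the effect on top of MYC was lower for 58 and higher for none in footprints (median difference −2.30) and lower for 23 of 93 in RNA (median −0.99, against −1.54 for interferon genes). Without M mouse 3 the lower ones numbered 41 in footprints and 8 in RNA, and without BM mouse 1 they numbered 71 and 46. *Top2a* differed by −4.70 ± 1.03 and *Mki67* by −3.49 ± 0.80 in footprints. Against that 8.23%, interferon genes were raised by β-catenin alone for 21 of 26, and the effect was lower with MYC for 13, or for 22 without BM mouse 1.

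Most differences called for zone 1 genes were of the other sign. β-catenin alone lowered 14 of 21 and raised none, beside 6.75% of all genes lowered, and on top of MYC the effect was higher for 8 and lower for 1 in footprints (14 and 1 without BM mouse 1). *Pck1* changed by −0.55 (adjusted p = 0.534) without MYC and differed by 2.65 ± 0.69 between the settings, and *Cps1* by −0.39 and 1.59 ± 0.42. For nitrogen handling genes the effect was higher with MYC for 8 of 22 and lower for none (11 and 2 without BM mouse 1). *Hsd3b5* changed by −0.80 without MYC and differed by −7.76 ± 0.27, and *Igf2* changed by −0.14 (adjusted p = 0.945) and differed by 6.84 ± 1.19. *Moxd1*, a monooxygenase relative, rose by 5.51 with β-catenin alone and fell with MYC, from 59.3, 12.1 and 15.8 CPM to 0, 0.773 and 0.271.

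**Figure D5:**
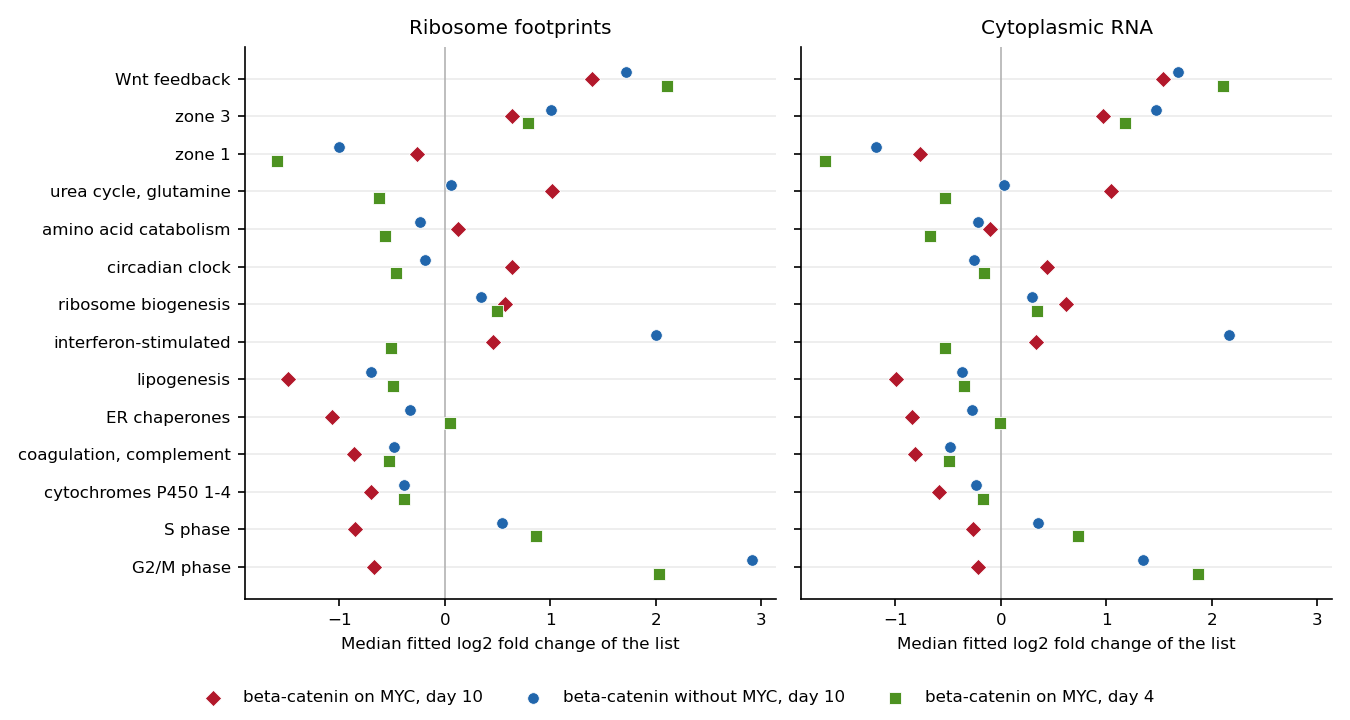
Median log2 change of each gene list for mutant β-catenin added to MYC at day 10, without MYC at day 10 and added to MYC at day 4, in footprints and RNA. Red diamonds are the first, blue circles the second and green squares the third. G2/M genes had a footprint median of −0.68 in the first and 2.91 and 2.03 in the others, and lipogenic genes −1.49 against −0.70 and −0.49.

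A further 6 mice gave the effect of β-catenin on MYC at day 4. The effect at day 10 was higher for 1772 genes and lower for 1871 of 11815 in footprints (15.0% and 15.8%), and for 1355 and 1642 of 11757 in RNA (11.5% and 14.0%). The 2 effects share no mouse and correlated at 0.136 in footprints and 0.209 in RNA across genes. Leaving out BM mouse 1 of day 10, the counts were 2931 and 3387 in footprints and 2061 and 2548 in RNA. Without any other mouse they were 1235 to 1750 and 1396 to 1748 in footprints.

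At day 4 β-catenin on MYC raised footprints of 8.06% and lowered those of 8.32% of all genes tested. It raised 71 of 96 cell-cycle genes (median 1.29), and by day 10 the effect was lower for 74 and higher for none (median difference −2.19), and for 65 and none without M mouse 3 and 81 and none without BM mouse 1. *Mki67* rose by 1.93 at day 4 and differed by −2.47 ± 0.64 at day 10. Of the Wnt targets all 11 were called higher at day 4 (median 2.11), and none was called for a difference at day 10, where 8 were lower without BM mouse 1. *Cyp2f2* fell already at day 4 by 2.25 on the log2 scale and by 4.08 more (SE 0.48) at day 10, and *Slc1a2* rose by 1.99 and then by 2.04 ± 0.19 more.

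Part of the nitrogen handling list changed direction between the times. At day 4, 10 of 22 were lower and 5 higher, beside 8.32% and 8.06% of all genes, and by day 10 the effect was higher for 15 and lower for none in footprints (15 and 2 without BM mouse 1). Of the 10 lower at day 4, 5 were called higher at day 10, *Ass1*, *Cps1*, *Got1*, *Gpt* and *Slc7a2* (the latter pair chosen after their values were seen), while *Glul*, *Oat*, *Rhbg* and *Slc1a2* were called higher at both times and *Gls2* and *Otc* lower at both. Without any one of the day 10 mice other than BM mouse 1, only *Got1* and *Slc7a2* of those 5 were still called higher at day 10, and the log2 change was above 0 for all 5. *Pck1* changed by −3.21 at day 4 (adjusted p = 0.00677) and differed by 5.33 ± 0.82, and *Got1* by −1.93 and 5.60 ± 0.77. The effect was higher at day 10 for 13 of 21 clock genes and 7 of 10 Kupffer markers (14 and 8 without BM mouse 1), and 5 of the 10 Kupffer markers were lower at day 4. Falls of *Hsd3b5*, *Elovl3* and *Fabp1* were called at day 10 and not at day 4, when these genes changed by −0.24, −0.14 and −0.13 (adjusted p = 0.229, 0.58 and 0.832), and the effects differed by −8.30, −6.80 and −5.47. *Sult1e1* and *Igfbp1* changed by −1.52 and −0.35 at day 4 (adjusted p = 0.625 and 0.817) and differed by 10.62 ± 2.21 and 7.55 ± 1.10.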

How the data were processed

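Livers of 24 mice, male by the labels, gave 24 RPF and 24 RNA libraries, of which 12 entered the day 10 comparison, and 6 further mice each the comparisons without MYC and at day 4. Per the labels and methods, the authors trimmed reads with cutadapt 1.18, aligned RPFs with BBmap to the most abundant transcript of each gene, removed duplicates by molecular identifier and deposited footprint counts over the CDS without a stretch of codons at each end. RNA reads were aligned with Bowtie2 2.3.5.1 and quantified with RSEM 1.3.3 (GENCODE vM27), and the authors deposited expected counts per transcript, of which at least 99.92% per library were within 0.005 of a whole number. The deposited TPM, FPKM and percent columns were not used.

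Expected counts were summed per gene and rounded. Genes were filtered by filterByExpr (minimum count 10, minimum total 15), scaled by TMM within a library type and tested with edgeR 4.0.16 quasi-likelihood fits (R 4.3.3), with Benjamini-Hochberg adjustment over all genes tested and a threshold of 0.1. SE is the fitted log2 fold change over the square root of F. TE was the interaction of genotype and library type, with no term for the mouse in the main fit. Differences between effects were interactions over 12 mice. Per-mouse log2 values used a pseudocount of 0.5 CPM. P-values measure the spread between individual mice. Alternatives used DESeq2 1.42.0, limma 3.58.1 and other settings. The fits were also run on simulated independent libraries. These held no mouse effect shared by RPF and RNA and no mouse that stood apart, so they do not check the fits on those points. Python 3.11.15 built the tables.

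RPF and RNA libraries of a mouse came from the same liver, and their deviations from the group means correlated at 0.411 to 0.639.

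Named genes were the 10 largest changes called in each direction with groups not overlapping and a mean of at least 20 counts in the higher group, up to 4 called members of each list, members of the Wnt and zonation lists, 13 fixed genes, genes called for TE, and the 5 largest differences between effects in each direction. Lists (33, and 9 of cell markers) were written from textbook knowledge, and members, lists and comparison were chosen with earlier results of these data known. Of the list genes 4 were not used because they are not in the tables used here, and some results are not reported here. Gene coordinates are from GENCODE vM39 (GRCm39) and promoters from RefSeq (GRCm38.p6).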

Additional observations from a re-analysis of the deposited data

Results flagged for a closer look

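Differences between the day 10 effect of β-catenin on MYC and its other effects are listed here because the interaction test called them (edgeR, adjusted p under 0.1). Against β-catenin without MYC, 568 footprints were higher and 913 lower, and 421 RNAs higher and 534 lower. Against day 4 the footprint counts were 1772 and 1871 and the RNA counts 1355 and 1642.

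Among the genes always reported, *Cyp2f2* fell further on MYC at day 10 than at day 4, by −4.08 in footprints and −4.76 in RNA on the log2 scale, and further than without MYC by −2.04 in RNA. The cycling marker *Mki67* differed by −3.49 in footprints and −3.04 in RNA against β-catenin without MYC, and by −2.47 and −2.67 against day 4. *Top2a* differed by −4.70 in footprints against β-catenin without MYC, and by −3.33 in footprints and −1.27 in RNA against day 4. M mouse 3 was the highest of the 6 day 10 mice for both genes in footprints. Without it *Mki67* differed by −2.53 in footprints and −2.24 in RNA against β-catenin without MYC and by −1.54 and −1.86 against day 4, and *Top2a* by −3.42 in footprints against the former and by −2.08 and −0.86 against the latter, and the interaction test still called each of these (adjusted p from 0.00739 to 0.0889).

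Against day 4, *Myc* differed by 1.41 in footprints and 1.20 in RNA, *Ctnnb1* by −0.47 in RNA and *Igfbp2* by −0.95 in RNA.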

How the results depend on the processing

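Leaving out BM mouse 1 raised each count of calls, and leaving out most other mice lowered them. Over all single mice left out, higher footprints ranged from 636 to 3544 and lower ones from 836 to 3323, higher RNAs from 951 to 2843 and lower ones from 1069 to 2917, and TE calls from 1 to 543 and 5 to 861. Against β-catenin without MYC the ranges were 205 to 2091 and 316 to 2932 for footprints and 149 to 1295 and 197 to 1734 for RNA, and against day 4 they were 1235 to 2931, 1396 to 3387, 985 to 2061 and 1221 to 2548.

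With sample quality weights, which gave BM mouse 1 the lowest weight, 3859 footprints were higher and 3933 lower, 3159 RNAs higher and 3061 lower, and TE was called for 758 and 1460. With the spread estimated over all 8 groups, 3150 and 3031 footprints and 86 and 189 TE changes were called. DESeq2 called 22 and 31 TE changes and 877 footprints higher than without MYC, and a minimum of 10 counts in every library left 2 higher TE calls. The mouse as a replicate block gave 39 and 65 TE calls, and, added after seeing the data, 1471 and 1487 with that block and without BM mouse 1.

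Mouse numbers shared by M and BM name mice and do not pair them: deviations of same-numbered mice correlated at −0.128, 0.213 and −0.0868 in footprints. With the number as a replicate block 1329 footprints were higher and 1688 lower, and 1485 RNAs higher and 1694 lower. The other alternatives left each count within 1.5 times its main value.

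Of the genes named, 4 changed sign and were called without BM mouse 1: footprints of *Nkd1* (−1.09, against up to 1.40 without another mouse) and *Slc13a3* (−0.89, up to 1.86), and RNA of *Rnf43* (−0.98, up to 0.72) and *Tbx3* (−0.63, up to 1.01). RNA libraries were shallower than RPF libraries (at most 5052777 counts against at least 11162699), which limits TE and genes of few reads most. The cause of these changes was not tested.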

Other observations

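These lists were chosen after the values were seen, so their counts are descriptions with no test of the list. Genes with higher expression in male than in female mouse liver were lower in BM at day 10 in footprints for 18 of 20 and higher for none (median log2 change −3.24, edgeR adjusted p under 0.1 per gene), and in RNA for 19 of 20 (median −3.28). Without BM mouse 1 the counts were 19 and 20. The medians were −0.78 for β-catenin without MYC and −0.63 on MYC at day 4 in footprints. *Hsd3b5*, *Elovl3* and *Slco1a1*, described above, are such genes. *Cyp2d9*, another, had 1823, 1992 and 1260 CPM of footprints in M and 1405, 1558 and 1433 in BM. All 6 mice were male. Of female-biased genes 6 of 13 tested rose and 3 fell in footprints (median 1.0; 1 fell without M mouse 2 or BM mouse 2), and 4 of 12 rose and 5 fell in RNA (median −0.22).

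Genes known to be induced by glucocorticoids in liver rose in footprints for 12 of 12 (median 2.65) and in RNA for 11 of 12 (median 2.32). In footprints the groups overlapped for 4 of the 12, *Klf9*, *Tat*, *Dusp1* and *Errfi1*, with BM mouse 1 within the M range for each. Rises numbered 7, 7, 10, 8 and 8 in footprints and 8, 8, 10, 9 and 8 in RNA without M mice 1, 2 and 3 and BM mice 2 and 3, and 12 in both without BM mouse 1. *Fkbp5*, a chaperone partner of the glucocorticoid receptor, had 23.9, 22.6 and 23.4 CPM of footprints in M and 62.6, 183 and 138 in BM. The medians were 0.71 for β-catenin without MYC and −0.69 on MYC at day 4. *Ppp1r3g*, a glycogen-targeting subunit of protein phosphatase 1 chosen after its values were seen, was near 0 in M and in BM mouse 1 (0, 0.412 and 0, and 0.0622 CPM of footprints) and at 56.4 and 110 CPM in BM mice 2 and 3.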
